A study of Rattus norvegicus with 24 samples.

Results

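Fos, Jun, Egr1 and Myc are 4 genes whose transcripts are made within minutes of a stimulus and decay as fast. They were followed through all 24 libraries of a study of the endoplasmic reticulum stress sensor IRE1α. The members were taken by their rat Ensembl IDs, 4 of the 26689 IDs in the deposited count table: ENSRNOG00000008015 (Fos), ENSRNOG00000026293 (Jun), ENSRNOG00000019422 (Egr1) and ENSRNOG00000004500 (Myc). The deposited table holds IDs without names, so these pairings come from outside it and could not be checked in it. All 4 passed the filter on low counts, as did 13760 IDs in all.

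The cells were INS1, a rat insulinoma line that stands in for beta cells of the pancreas, and every library came from cells that carry a doxycycline-inducible mouse IRE1α (Ern1) transgene. Uninduced cells had the drug vehicle alone. Induced cells had doxycycline together with vehicle, with PAIR1 or with KIRA9. The series describes both compounds as acting on IRE1α's kinase activity. RNA was taken at 4 h or 24 h, with 3 libraries in each of the 8 groups. The doses are not stated in the labels. The labels do not say whether the line is 1 clone or whether replicates were separate cultures, so the p-values speak only of spread among these libraries, which may be technical. Uninduced cells lacked doxycycline as well as the transgene product, and neither compound was given to uninduced cells. The effect of doxycycline therefore cannot be told apart from that of the transgene, and neither can a compound's action on IRE1α from its other actions.

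Immediate early genes need no new protein to be switched on: kinases such as ERK, JNK and PKA act on factors already bound at their promoters. Fos and Jun encode the partners of the AP-1 dimer, which binds DNA as a leucine zipper pair, and Jun can also pair with itself. Egr1 encodes a zinc finger factor, and Myc a helix-loop-helix factor that pairs with Max and drives genes of ribosome making and growth. In beta cells glucose, calcium and cAMP are known to raise Fos and Egr1. IRE1α has a kinase and an RNase domain, and its cytosolic part is known to recruit TRAF2, a step on the way to JNK, the kinase that phosphorylates the Jun protein.

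Of the 4 genes, Egr1 was matched in the RefSeq promoter table, which gives 250 bases before to 50 after a gene's start. A stretch of 94 bases of this promoter is shown because it holds the elements for which immediate early promoters are known. It lies at chr18:26736933-26737026 on the plus strand in GRCr8, from base -145 to base -52 relative to the gene's start, and is written 5′ to 3′. Capitals mark CArG boxes, the sites of serum response factor, and CGTCA, the reverse complement of TGACG, the core of the cAMP response element.

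Egr1: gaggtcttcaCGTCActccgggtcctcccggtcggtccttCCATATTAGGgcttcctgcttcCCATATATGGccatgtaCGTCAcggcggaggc

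Both strands of the full 300 bases were searched. They held 2 CArG boxes, at -105 to -96 and at -83 to -74, and the core TGACG at 2 places, -135 to -131 and -66 to -62. Over the 33469 promoters of the table, 1.64% held a CArG box and 0.0209% held at least 2. The core TGACG was present in 21.2% and at 2 or more places in 4.96%. The full element TGACGTCA, which contains that core, the AP-1 site TGANTCA, the EGR site GCGNGGGCG and the E-box CACGTG, to which Myc with Max binds, had no match in the Egr1 window. They were present in 1.83%, 7.33%, 4.98% and 6.42% of all promoters. A match is a description of the letters and not a measured site, and a missing match says only that these letters are not in this window.

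Each library held between 12.6 and 23.8 M counts. A gene with 0 counts could thus have had a level of up to 0.126 to 0.238 counts per 1 M (CPM), the worth of 3 counts. Levels are given as CPM scaled by TMM, whose factors ran from 0.978 to 1.09. Induced vehicle replicates 1 to 3 at 24 h had factors of 1.09, 1.08 and 1.08, and the highest of any other library was 1.00. Comparisons of that group with others carry this difference in scaling. Levels are compared within a gene only, since no transcript length of the authors' annotation was used. Fos was near the limit of detection, with 3 to 53 counts in a library, while Jun had 49 to 482, Egr1 340 to 918 and Myc 261 to 744. A set of 6 libraries stood apart, with 32 IDs at over 2 times the level of any other library: PAIR1 at 24 h replicate 1, induced vehicle at 24 h replicates 1 and 2, induced vehicle at 4 h replicate 3, and uninduced replicate 2 at 4 h and at 24 h. None of the 4 genes was among the 32, which held 0.605% to 0.680% of counts in these libraries and 0.0411% to 0.0563% in the other 18. For the 6 induced vehicle libraries the time characteristic contradicts the title and the column name, and the title was used. By the characteristic these libraries would exchange their times, and every induced vehicle comparison depends on this choice: induction would then give log2 changes of 1.84 for Fos, 2.75 for Jun, 0.51 for Egr1 and 0.64 for Myc at 4 h, and of -0.24, -1.09, 0.053 and -0.51 at 24 h. The labelled cell type was not checked against beta cell markers, nor was the presence of other cell types, because no ID was paired with a symbol.

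**Figure D1:**
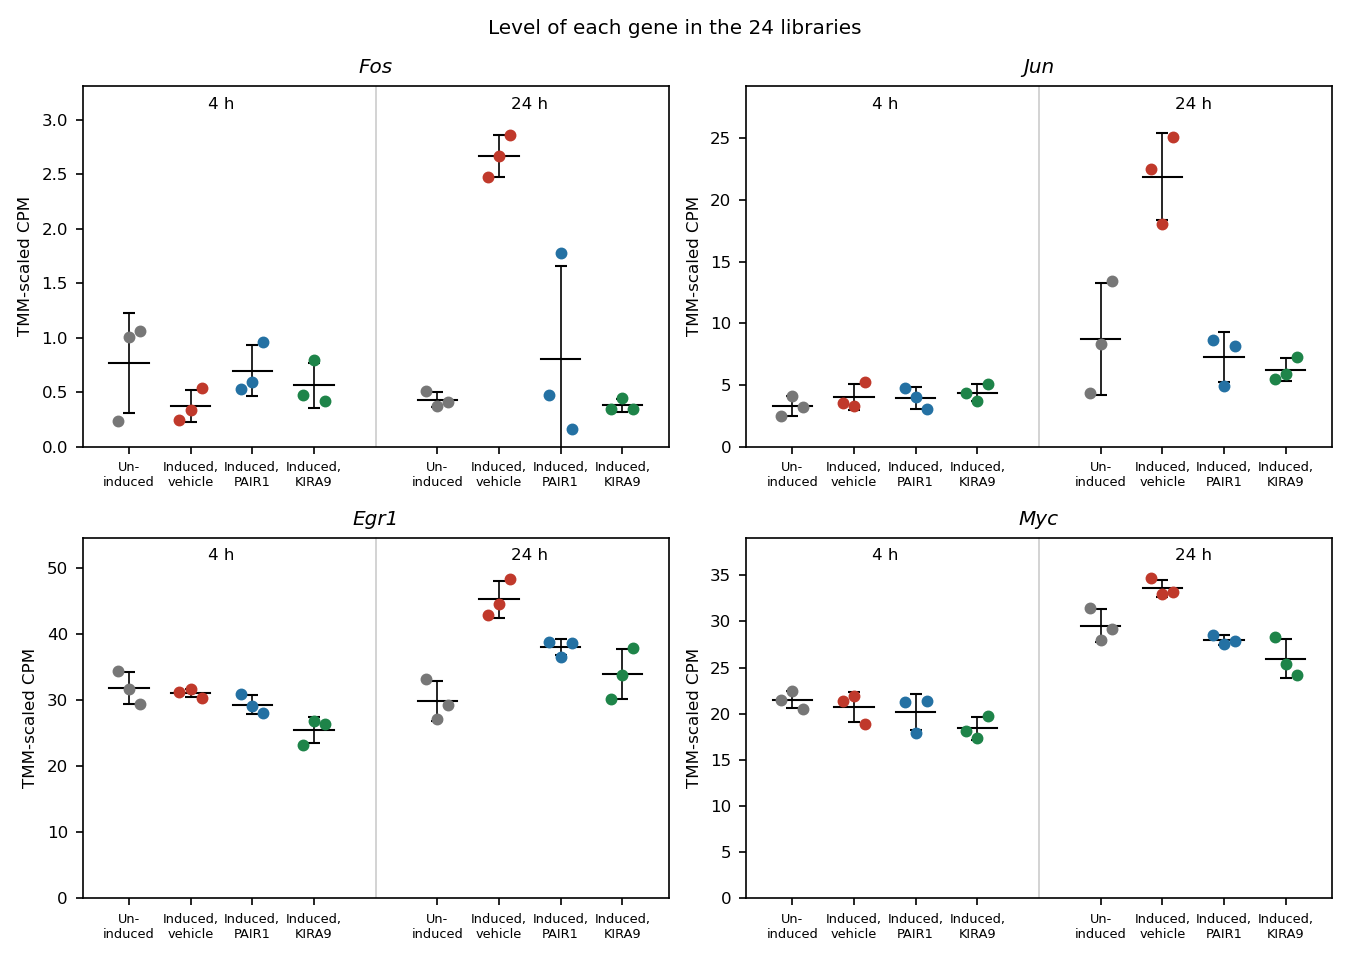
Level of each gene in TMM-scaled CPM (y axis, from 0) in each library of the 8 groups (points, replicates 1 to 3 from left to right), with the mean (bar) and SD (whiskers, n = 3, those reaching below 0 not shown in full). The 3 induced vehicle libraries at 24 h are the highest of all 24 for each gene, clearly apart for Fos (2.48 to 2.86 CPM) and Jun (18.1 to 25.1 CPM) and close to the uninduced 24 h libraries for Myc.

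Induction of IRE1α was followed at 24 h by higher levels of all 4 genes, and at 4 h by no called change in any of them. At 24 h Fos rose 6.02-fold, Jun 2.53-fold, Egr1 1.51-fold and Myc 1.14-fold over uninduced cells. The 4 called rises stand against a background in which 29.8% of all tested IDs were called higher in the same comparison. The median change was 0.97 on the log2 scale over the 4 genes and 0.00 over all tested IDs. The call is an adjusted p below 0.05 in edgeR's quasi-likelihood test, with Benjamini-Hochberg adjustment over the 13760 IDs, which also gives the standard errors (SE) and, where no other tool is mentioned, all adjusted p-values. In bulk RNA, fewer cells expressing a gene and less of its RNA per cell cannot be told apart.

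Fos, the AP-1 partner that cannot pair with itself, stood at 0.508, 0.377 and 0.407 CPM in uninduced replicates 1 to 3 at 24 h and at 2.48, 2.67 and 2.86 CPM in induced vehicle cells. Every induced library was above every uninduced one, and the spread within each group was small beside the gap. The log2 change was 2.59 ± 0.54 (SE), with an adjusted p of 0.00017. In counts, the uninduced group summed to 25 Fos reads of 57.6 M (exact Poisson 95% interval 16.2 to 36.9) and the induced group to 139 of 48.5 M (117 to 164). These intervals cover counting error only.

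Jun, which AP-1 uses as partner of Fos or of itself, was at 4.40, 8.30 and 13.4 CPM in uninduced and at 22.5, 18.1 and 25.1 CPM in induced vehicle libraries at 24 h. The groups did not overlap, but the uninduced libraries differed among themselves by 3.05-fold, the widest spread of Jun in any group. The log2 change was 1.34 ± 0.28 (SE; adjusted p = 0.000246). Without uninduced replicate 1, the lowest, it was 1.01, and without uninduced replicate 3, the highest, it was 1.80.

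Egr1 was at 33.2, 27.2 and 29.3 CPM in uninduced and at 42.9, 44.5 and 48.3 CPM in induced vehicle libraries at 24 h. The groups did not overlap, and the log2 change of 0.59 ± 0.08 (SE) had the smallest adjusted p of the 4 genes in this comparison, 1.08e-06. Its promoter, shown above with 2 CArG boxes, was the only one matched among the 4 genes, and a link between these boxes and the change was not tested.

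Myc was at 31.5, 28.0 and 29.2 CPM in uninduced and at 34.7, 33.0 and 33.2 CPM in induced vehicle libraries at 24 h. The groups did not overlap, though the highest uninduced and the lowest induced library were close. The log2 change was 0.18 ± 0.07 (SE; 95% interval 0.03 to 0.33; adjusted p = 0.0305). This call was lost without induced replicate 1 (adjusted p = 0.125), without uninduced replicate 2 (0.133) or 3 (0.0822), with DESeq2 (0.0596) and without the low count filter (0.0885).

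The 4 genes thus differed in size of change: 29 of the 13760 tested IDs had a larger positive log2 change at 24 h than Fos, 205 than Jun, 1466 than Egr1 and 4844 than Myc. Fold changes of IDs with few counts spread more widely, so that the rank of Fos is less firm than that of Egr1. Without the 6 libraries that stood apart, the log2 changes were 2.62 for Fos, 1.52 for Jun, 0.64 for Egr1 and 0.14 for Myc, the last no longer called. That fit leaves induced vehicle cells at 24 h with replicate 3 alone, assumed to vary like the other groups. Replicate 3 was the highest of its group for Fos, Jun and Egr1. Upper-quartile scaling put the median log2 change of all IDs at 0.11 in this comparison and gave 5213 called higher and 3693 lower in place of 4102 and 4401. Myc was then at 0.29 and kept its distance from that median, and all 4 genes stayed called higher.

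**Figure D2:**
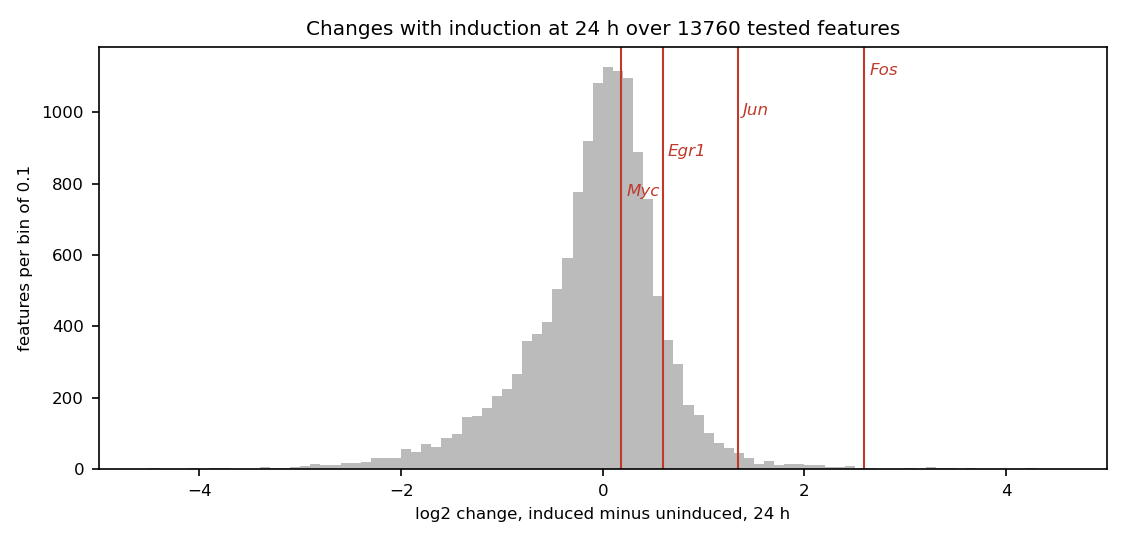
Histogram of the log2 change with induction at 24 h (x axis, induced vehicle minus uninduced) over the 13760 tested IDs in bins of 0.1 (y axis, IDs per bin), with the 4 genes as red lines. Myc (0.18) lies inside the bulk of the distribution and Fos (2.59) in its sparse right end.

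At 4 h none of the 4 genes was called for induction, in a comparison in which 0.298% of tested IDs were called. The log2 changes were -0.99 for Fos (95% interval -2.28 to 0.29, adjusted p = 0.909), 0.31 for Jun (-0.35 to 0.98, 0.954), -0.04 for Egr1 (-0.21 to 0.14, 0.987) and -0.05 for Myc (-0.21 to 0.10, 0.975). For Egr1 and Myc the interval leaves out a change as large as the one Egr1 showed at 24 h. For Fos and Jun it is wide. Fos was at 0.240, 1.01 and 1.07 CPM in uninduced and 0.245, 0.337 and 0.538 CPM in induced vehicle libraries at 4 h, so that the groups overlapped through uninduced replicate 1. Jun was at 2.50, 4.09 and 3.26 CPM without and 3.58, 3.30 and 5.26 CPM with induction at 4 h.

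With the compounds all 4 genes were lower at 24 h than in induced vehicle cells. With PAIR1 Fos was 3.32-fold lower, Jun 3.02-fold, Egr1 1.19-fold and Myc 1.20-fold. With KIRA9 the corresponding values were 6.88-fold, 3.49-fold, 1.33-fold and 1.30-fold. The 4 called falls stand against 24.9% of tested IDs called lower with PAIR1 and 30.6% with KIRA9. The median log2 change of the 4 genes was -0.93 with PAIR1 and -1.11 with KIRA9, and that of all tested IDs was -0.00 and -0.02. Both comparisons use the same 3 induced vehicle libraries, which are also those of the induction comparison, so the direction of the compound changes is not independent of the rise with induction.

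For Fos the PAIR1 libraries at 24 h held 0.475, 1.78 and 0.166 CPM, from 6, 27 and 3 counts, and the KIRA9 libraries 0.345, 0.451 and 0.351 CPM. PAIR1 replicate 2 was thus 10.7-fold above replicate 3, the widest spread of any of the 4 genes in any group, yet below every induced vehicle library. The log2 change from induced vehicle cells was -1.73 ± 0.51 (SE; adjusted p = 0.00531) with PAIR1 and -2.78 ± 0.57 (adjusted p = 0.000118) with KIRA9. The PAIR1 change was -3.11 without PAIR1 replicate 2 and -1.20 without PAIR1 replicate 3, called in both cases. Without the 6 libraries that stood apart it was -1.61 and not called (adjusted p = 0.106), while that of KIRA9 was -2.89 (0.00331).

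For Jun the values at 24 h were 8.64, 4.93 and 8.20 CPM with PAIR1 and 5.52, 5.92 and 7.31 CPM with KIRA9, all below the lowest induced vehicle library at 18.1 CPM. The log2 changes were -1.60 ± 0.28 (SE; adjusted p = 5.51e-05) and -1.80 ± 0.28 (adjusted p = 9.97e-06). Without the 6 libraries they were -1.93 and -2.01, with only the highest induced vehicle library, at 25.1 CPM, left at 24 h.

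For Egr1 the values at 24 h were 38.7, 36.6 and 38.5 CPM with PAIR1 and 30.2, 33.8 and 37.8 CPM with KIRA9, against at least 42.9 CPM in induced vehicle cells. The log2 changes were -0.25 ± 0.08 (SE; adjusted p = 0.0109) and -0.41 ± 0.08 (adjusted p = 0.000124). The PAIR1 call was lost without induced vehicle replicate 3, the highest (adjusted p = 0.0637). Without the 6 libraries the PAIR1 change was -0.37. That fit keeps replicate 3 as the only induced vehicle library at 24 h, so it cannot test this dependence.

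For Myc the values at 24 h were 28.5, 27.5 and 27.9 CPM with PAIR1 and 28.3, 25.4 and 24.2 CPM with KIRA9, against at least 33.0 CPM in induced vehicle cells. The log2 changes were -0.26 ± 0.07 (SE; adjusted p = 0.00373) and -0.37 ± 0.07 (adjusted p = 0.000108). Each exceeded in size the rise of 0.18 with induction. Set directly against uninduced cells, however, Myc was not called lower with PAIR1 (-0.08, adjusted p = 0.464) or KIRA9 (-0.19, 0.0633). Without the 6 libraries the PAIR1 change was -0.27 and not called (adjusted p = 0.0696), and that of KIRA9 was -0.36 (0.00794).

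Under upper-quartile scaling the median of all IDs moved to -0.09 with PAIR1 and -0.14 with KIRA9 at 24 h. The IDs called higher and lower were then 3543 and 4559 in place of 4132 and 3424 with PAIR1, and 3633 and 5558 in place of 4451 and 4209 with KIRA9. All 4 genes stayed called lower with both compounds.

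**Figure D3:**
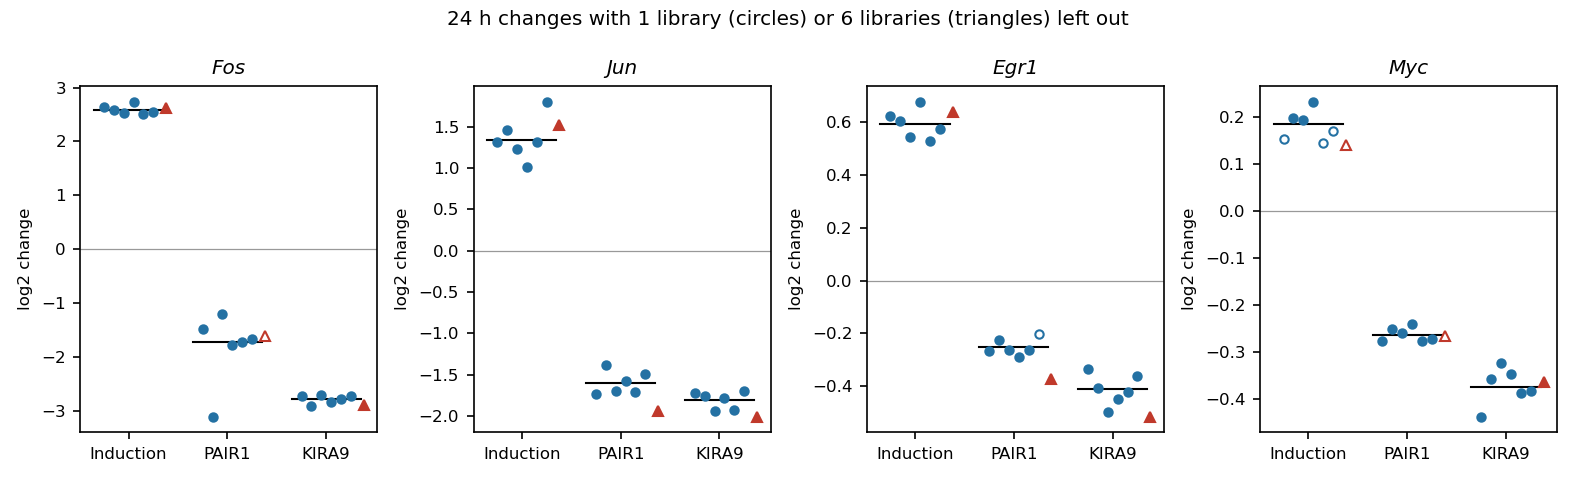
log2 change at 24 h (y axis) for induction against uninduced cells, and for PAIR1 and KIRA9 against induced vehicle cells (x axis), with all libraries (black line), with each of the 6 compared libraries left out in turn (circles) and without the 6 libraries that stood apart (triangles). Filled marks passed adjusted p below 0.05. The mark farthest from its line is Fos with PAIR1 at -3.11, without PAIR1 replicate 2.

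Set against uninduced cells at 24 h, 1 of the 8 values with a compound was called: Egr1 with PAIR1, which was still 1.27-fold above uninduced cells (log2 change 0.34 ± 0.08 SE, adjusted p = 0.00265). Of all tested IDs 13.7% were called higher in this comparison, and 28% in either direction. The PAIR1 and uninduced libraries did not overlap for Egr1, but the call was lost without the 6 libraries that stood apart (log2 change 0.27, adjusted p = 0.077). For Fos the change with PAIR1 was 0.86 (95% interval -0.37 to 2.09), for Jun -0.25 (-0.86 to 0.35) and for Myc -0.08 (-0.23 to 0.07). The signs for Fos and Jun rested on single libraries: Fos was at -0.52 without PAIR1 replicate 2, and Jun at 0.21 without uninduced replicate 3, neither called.

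KIRA9 against uninduced cells gave no call among the 4 genes at 24 h, where 23.4% of tested IDs were called in either direction. The log2 changes were -0.19 for Fos (95% interval -1.55 to 1.16), -0.46 for Jun (-1.06 to 0.14), 0.18 for Egr1 (0.01 to 0.35, adjusted p = 0.115) and -0.19 for Myc (-0.34 to -0.04, adjusted p = 0.0633). Egr1 was called higher without KIRA9 replicate 1 (adjusted p = 0.033) or uninduced replicate 1 (0.0286). Jun was called lower without uninduced replicate 1 (0.0298), and Myc without KIRA9 replicate 1 (0.0253) or uninduced replicate 2 (0.0482). A missed threshold does not show that levels had returned to those of uninduced cells. This holds most for Fos, whose interval spans more than a 2-fold change in each direction.

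The direct comparison of the compounds called none of the 4 genes at 24 h, where 16.3% of tested IDs were called in either direction. The log2 difference, positive where PAIR1 was higher, was 1.05 for Fos (95% interval -0.24 to 2.34, adjusted p = 0.275), 0.21 for Jun (-0.41 to 0.82, 0.715), 0.16 for Egr1 (-0.01 to 0.33, 0.214) and 0.11 for Myc (-0.04 to 0.26, 0.358). The libraries of the compounds overlapped for each gene. The direction for Fos rested on PAIR1 replicate 2: without it the difference was -0.33, and without PAIR1 replicate 3 it was 1.58, neither called. For Egr1 and Myc the intervals bound a difference to at most 0.33 and 0.26 on the log2 scale in favour of PAIR1, whereas for Fos a difference of over 2 remains within the interval. The doses are not given, so these are treatments as applied and not compounds at equal dose.

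At 4 h the compounds gave 2 calls in 16 tests against the vehicle groups, and both were falls of Egr1 with KIRA9. Egr1 was at 34.3, 31.6 and 29.4 CPM in uninduced, 31.2, 31.6 and 30.4 CPM in induced vehicle, 30.8, 29.1 and 28.0 CPM in PAIR1 and 23.1, 26.8 and 26.3 CPM in KIRA9 libraries. All 3 KIRA9 libraries lay below all 9 others. The log2 change was -0.29 ± 0.08 (SE; adjusted p = 0.0268) from induced vehicle cells and -0.32 ± 0.08 (adjusted p = 0.0134) from uninduced cells. In these comparisons 5.66% and 5.49% of tested IDs were called lower, and 11.7% and 10.9% in either direction. Both calls use the same 3 KIRA9 libraries. The call against induced cells was lost without KIRA9 replicate 1 (adjusted p = 0.14), without induced replicate 1 (0.0652), 2 (0.0778) or 3 (0.052), and without the 6 libraries that stood apart (0.0779). That against uninduced cells was lost without KIRA9 replicate 1 (0.0869) or uninduced replicate 1 (0.0822).

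Myc at 4 h was at 21.5, 22.4 and 20.6 CPM in uninduced, 21.4, 21.9 and 18.9 CPM in induced vehicle, 21.2, 17.9 and 21.4 CPM in PAIR1 and 18.2, 17.3 and 19.7 CPM in KIRA9 libraries. The KIRA9 libraries lay below all uninduced ones, with a log2 change of -0.22 ± 0.08 (SE) that was not called (adjusted p = 0.0648) except without KIRA9 replicate 3 (0.0483). Against induced vehicle cells KIRA9 gave -0.17 (95% interval -0.33 to -0.01, adjusted p = 0.177).

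Fos and Jun were not called at 4 h with either compound. Fos was at 0.531, 0.597 and 0.963 CPM with PAIR1 and 0.476, 0.797 and 0.418 CPM with KIRA9, which overlapped the uninduced libraries. Jun was at 4.77, 4.05 and 3.05 CPM with PAIR1 and 4.36, 3.72 and 5.08 CPM with KIRA9, which overlapped both vehicle groups. PAIR1 against induced vehicle cells gave log2 changes of 0.93 for Fos (95% interval -0.37 to 2.22), -0.04 for Jun (-0.70 to 0.62), -0.09 for Egr1 (-0.26 to 0.09) and -0.04 for Myc (-0.19 to 0.12), with none called where 3.2% of tested IDs were. Against uninduced cells PAIR1 again gave none, where 2.55% of IDs were called. PAIR1 against KIRA9 at 4 h gave none where 2.06% were called. For Egr1 that difference was 0.20 (95% interval 0.03 to 0.38, adjusted p = 0.298), with all 3 PAIR1 libraries above all 3 KIRA9 libraries.

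**Figure D4:**
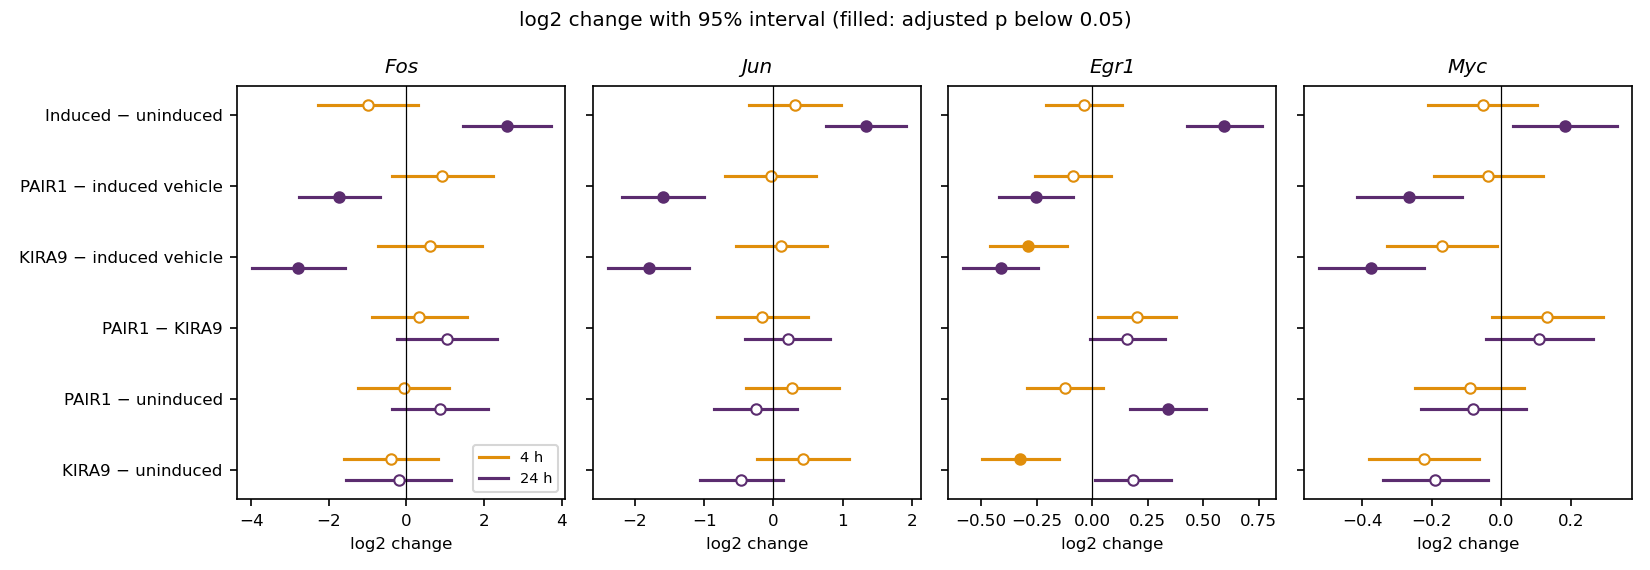
log2 change with its 95% interval (x axis, scaled for each gene) for the 6 comparisons within a time (y axis), at 4 h (orange) and 24 h (purple); filled points passed adjusted p below 0.05. At 24 h the first 3 comparisons are filled for all 4 genes, and at 4 h only the KIRA9 comparisons of Egr1 with each vehicle group are.

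The genes also gave different changes between the 4 h and 24 h libraries without induction, though whether genes differ from each other was not tested. In uninduced cells Myc rose 1.38-fold from 4 h to 24 h (log2 change 0.46 ± 0.07 SE, adjusted p = 6.95e-05) and Jun 2.65-fold (1.41 ± 0.31, adjusted p = 0.0016), where 13.6% of tested IDs were called higher. Egr1 gave -0.09 (95% interval -0.26 to 0.08) and Fos -0.76 (-1.98 to 0.47), neither of them called. In size this rise of Jun was close to its rise with induction at 24 h (1.34). The uninduced 24 h libraries, which enter both values, spread widely for Jun, at 4.40, 8.30 and 13.4 CPM. Replicate 1, at 4.40 CPM, lay close to the highest uninduced 4 h library, at 4.09 CPM.

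Myc was called higher at 24 h than at 4 h under all 4 treatments. On the log2 scale the rise was 0.46 in uninduced, 0.70 in induced vehicle, 0.47 in PAIR1 and 0.49 in KIRA9 cells. No 24 h library of a treatment overlapped its 4 h libraries. How common such separation was over all tested IDs was not computed, here or for the other comparisons. For Myc each of these log2 changes was larger in size than its change with induction or with a compound at 24 h. Whether they differ was not tested. Egr1 was called higher at 24 h in the 3 induced treatments, by 0.54 with vehicle, 0.37 with PAIR1 and 0.42 with KIRA9. Jun rose by 2.43 with vehicle and by 0.88 with PAIR1 (adjusted p = 0.0301), and gave 0.51 with KIRA9 (95% interval -0.12 to 1.15, adjusted p = 0.226). The PAIR1 call of Jun was lost without PAIR1 replicate 1 or 3 at 24 h (adjusted p = 0.109 and 0.101) or replicate 2 or 3 at 4 h (0.0649 and 0.127), and without the 6 libraries that stood apart (0.124). Fos rose by 2.83 with vehicle (adjusted p = 9.82e-05) and gave 0.17 with PAIR1 and -0.55 with KIRA9, neither called. The PAIR1 value of Fos was -1.21 without replicate 2 and 0.70 without replicate 3 of PAIR1 at 24 h. The background of IDs called higher at 24 h was 13.6% in uninduced cells, 30.2% with induction and vehicle, 16.9% with PAIR1 and 15.7% with KIRA9.

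The induction effect itself was larger at 24 h than at 4 h for Fos, by 3.58 ± 0.82 on the log2 scale (SE; adjusted p = 0.000695), for Egr1, by 0.63 ± 0.12 (adjusted p = 7.95e-05), and for Jun, by 1.03 ± 0.42 (adjusted p = 0.0495), where 22.5% of tested IDs were called in this direction. The call of Jun was lost when any 1 of 8 of its 12 libraries was left out (adjusted p of up to 0.141), with DESeq2 (0.0642) and with only the compared groups fitted (0.0804). For Myc the difference was 0.24 ± 0.10 (adjusted p = 0.0628). The PAIR1 effect was more negative at 24 h for Fos, by -2.66 (adjusted p = 0.00911; 0.0556 without the 6 libraries that stood apart), and for Jun, by -1.55 (0.00506), where 17% of IDs were called so. The KIRA9 effect was more negative for Fos, by -3.38 (0.00192), and for Jun, by -1.92 (0.00063), where 22.4% were. For Egr1 and Myc the compound effects were not called as different between times. None of the 4 genes was called for a different PAIR1 to KIRA9 gap at the later time, where 8.61% of IDs were.

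Over all groups the order of the mean levels was induced vehicle at 24 h first for each gene. For Fos it went on with PAIR1 at 24 h (0.806 ± 0.854 CPM, SD, n = 3), uninduced at 4 h (0.771 ± 0.460), PAIR1 at 4 h (0.697 ± 0.233), KIRA9 at 4 h (0.564 ± 0.204), uninduced at 24 h (0.431 ± 0.068), KIRA9 at 24 h (0.382 ± 0.059) and induced vehicle at 4 h (0.373 ± 0.150). Below the first group, at 2.67 ± 0.19 CPM, neighbours in this order lay within their spread.

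For Jun the order was induced vehicle at 24 h (21.9 ± 3.5 CPM), uninduced at 24 h (8.71 ± 4.53), PAIR1 at 24 h (7.25 ± 2.02), KIRA9 at 24 h (6.25 ± 0.94), KIRA9 at 4 h (4.38 ± 0.68), induced vehicle at 4 h (4.05 ± 1.06), PAIR1 at 4 h (3.96 ± 0.87) and uninduced at 4 h (3.28 ± 0.80). The 24 h groups thus came before the 4 h groups. Among neighbours, the libraries of the first and the second group did not overlap, nor did those of KIRA9 at 24 h and at 4 h, of which the former difference was called.

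For Egr1 the order was induced vehicle at 24 h (45.2 ± 2.8 CPM), PAIR1 at 24 h (37.9 ± 1.2), KIRA9 at 24 h (33.9 ± 3.8), uninduced at 4 h (31.8 ± 2.5), induced vehicle at 4 h (31.1 ± 0.6), uninduced at 24 h (29.9 ± 3.0), PAIR1 at 4 h (29.3 ± 1.4) and KIRA9 at 4 h (25.4 ± 2.0). Only the step from the first to the second group was a called difference between neighbours that the comparisons cover.

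For Myc the order was induced vehicle at 24 h (33.6 ± 0.9 CPM), uninduced at 24 h (29.5 ± 1.8), PAIR1 at 24 h (28.0 ± 0.5), KIRA9 at 24 h (26.0 ± 2.1), uninduced at 4 h (21.5 ± 0.9), induced vehicle at 4 h (20.7 ± 1.6), PAIR1 at 4 h (20.2 ± 2.0) and KIRA9 at 4 h (18.4 ± 1.2). The treatments kept 1 order at both times except that induced vehicle cells stood below uninduced cells at 4 h.

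Across the 24 libraries, which share their groups, the log2 CPM of Jun and Myc correlated with r = 0.77, Egr1 and Myc with 0.74, Jun and Egr1 with 0.67, Fos and Jun with 0.51, Fos and Egr1 with 0.48 and Fos and Myc with 0.37. These are descriptions over libraries that fall into groups. Among the IDs with a mean of at least 5 CPM, the 3 most like Fos had r = 0.83 to 0.84, the 3 most like Jun 0.93 to 0.95, the 3 most like Egr1 0.92 and the 3 most like Myc 0.95. No member of these trios was another of the 4 genes: 563 IDs were more like Myc than Jun was, and 2092 were more like Fos than Jun was. Their IDs are not printed, since the deposited table does not pair them with names.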

How the data were processed

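The RNA was enriched for poly(A) and made into NEBNext Ultra II libraries, as the labels' protocols say. The submitters' processing notes name HISAT2 and HTSeq and give no version. The deposited values are raw read counts per Ensembl ID, whole numbers that the authors did not normalize. Genome build, annotation and strand setting are not given in the sources used here. Reads of overlapping or antisense genes may therefore be shared.

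The tests used edgeR 4.0.16 under R 4.3.3. The filter (filterByExpr, minimum count 10) kept 13760 IDs with at least 99.9% of every library's counts. TMM scaling and a quasi-likelihood fit of 8 group means to all 24 libraries followed, and each of 20 comparisons was adjusted by Benjamini-Hochberg over all kept IDs. SE and 95% intervals are Wald values of that fit. The scripts were tested on simulated data. No 2 replicates agreed within sampling noise (chi-square per degree of freedom 3.57 to 19.1).

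The 4 genes and all lists were chosen with earlier results of these data known, and by rule all 4 were named in every comparison. A further 8 lists of related genes and 4 of cell type markers were not tested, since 0 of the 26689 IDs were paired with a symbol by the RefSeq gene table. Alternatives were DESeq2 1.42.0, RLE and upper-quartile factors, no filter, a replicate block, compared groups alone, each library left out, the other time label, and 6 libraries left out.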

Additional observations from a re-analysis of the deposited data

Results flagged for a closer look

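In 7 of 16 tests an effect differed between the early and the late time, by edgeR's test of that difference. Such differences were common over all tested IDs. In either direction, 50.3% were called for the induction effect, 41.9% for PAIR1 and 49.7% for KIRA9. For PAIR1 against KIRA9, 8.61% were called. The induction effect was more positive at 24 h by 3.58 on the log2 scale for Fos, 1.03 for Jun and 0.63 for Egr1. Of these, the Jun value was close to the threshold (adjusted p = 0.0495) and stayed called in 4 of 12 fits with 1 library left out. The PAIR1 effect was more negative at 24 h by -2.66 for Fos and -1.55 for Jun, and the KIRA9 effect by -3.38 for Fos and -1.92 for Jun. Induction and both compound effects share the induced vehicle libraries at each time, so these 7 are not independent of each other, and all 7 depend on the time label of those libraries. No group has the 4 libraries needed for a test of single outlying libraries.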

How the results depend on the processing

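Apart from the time label, 1126 values of the 4 genes were computed under alternatives: 1076 stayed on their side of the threshold, 34 lost and 16 gained a call, and 0 called values changed direction; 28 values not called either way changed sign. The cause of each change below was not tested, beyond the fewer libraries or IDs that an alternative itself fits. All values of the 4 genes are log2 changes, with adjusted p in parentheses, and counts are of called IDs. DESeq2 gave 67 IDs for induction at 4 h (41 with edgeR), 0.18 for Myc with induction at 24 h (0.0596) and 1.03 for Jun's induction effect over time (0.0642). Upper-quartile factors gave calls of Myc for KIRA9 against uninduced cells at 24 h, -0.21 (0.0404), and for its induction, PAIR1 and KIRA9 effects over time, 0.34 (0.00944), -0.31 (0.0226) and -0.32 (0.014). They moved the share called higher from 36.8% to 55.3% for PAIR1 against KIRA9 at 24 h, from 48.4% to 58.6% for time with vehicle, and for effects over time from 44.7% to 56.0% (induction), 59.4% to 47.2% (PAIR1), 55.0% to 41.4% (KIRA9) and 25.1% to 39.0% (PAIR1 against KIRA9). Without the filter, Myc with induction at 24 h was 0.16 (0.0885).

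Fitting the compared groups alone gave 27 IDs for induction at 4 h, 280 for PAIR1 and 198 for PAIR1 against uninduced cells at 4 h, 2070 for KIRA9 against uninduced cells at 24 h and 2219 for time in uninduced cells. Jun was 0.51 for time with KIRA9 (0.0395) and 1.05 for the induction effect over time (0.0804), and Myc 0.26 for the latter (0.0392). Without the 6 libraries that stood apart there were 246 IDs for PAIR1 and 966 for KIRA9 at 4 h, 161 and 944 against uninduced cells at 4 h, and 2187 for time in uninduced cells. Lost calls were Egr1 with KIRA9 at 4 h, -0.30 (0.0779), Myc with induction at 24 h, 0.14 (0.329), Fos and Myc with PAIR1 at 24 h, -1.61 (0.106) and -0.27 (0.0696), Egr1 for PAIR1 against uninduced cells at 24 h, 0.27 (0.077), Jun for time with PAIR1, 0.74 (0.124), Jun's induction effect over time, 1.26 (0.103), and Fos's PAIR1 effect over time, -2.90 (0.0556).

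Leaving out each library in turn gave these ranges. At 4 h, counts ran from 244 to 303 for PAIR1, 187 to 227 for PAIR1 against KIRA9 and 196 to 231 for PAIR1 against uninduced cells. Egr1 with KIRA9 at 4 h ran from -0.33 to -0.22, and against uninduced cells from -0.38 to -0.26, where Myc ran from -0.28 to -0.18. At 24 h Myc with induction ran from 0.14 to 0.23 and Egr1 with PAIR1 from -0.29 to -0.20. KIRA9 against uninduced cells at 24 h ran from -0.79 to -0.0011 for Jun, 0.094 to 0.27 for Egr1 and -0.25 to -0.14 for Myc. Jun for time with PAIR1 ran from 0.72 to 1.09. Over time, the induction effect ran from 0.69 to 1.49 for Jun and 0.17 to 0.29 for Myc, and for Myc the PAIR1 effect from -0.30 to -0.16 (called without PAIR1 at 4 h replicate 2) and the KIRA9 effect from -0.27 to -0.14 (called without KIRA9 at 24 h replicate 1). Fos's PAIR1 effect over time ran from -4.04, without PAIR1 at 24 h replicate 2, to -2.13.

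Taking the 6 induced vehicle libraries by their time characteristic exchanges their times. For Fos, Jun, Egr1 and Myc in this order, induction was 1.84, 2.75, 0.51 and 0.64 at 4 h (8700 IDs) and -0.24, -1.09, 0.053 and -0.51 at 24 h (3787). PAIR1 was -1.90, -2.47, -0.63 and -0.73 at 4 h (8733) and 1.10, 0.84, 0.29 and 0.43 at 24 h (4646). KIRA9 was -2.23, -2.32, -0.83 and -0.87 at 4 h (8939) and 0.046, 0.63, 0.13 and 0.32 at 24 h (4218). Time with vehicle was -2.83, -2.43, -0.54 and -0.70. Effects over time were -2.07, -3.84, -0.45 and -1.16 for induction, 3.00, 3.31, 0.92 and 1.17 for PAIR1 and 2.28, 2.95, 0.96 and 1.19 for KIRA9.

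Same-numbered libraries of different groups did not deviate together: over 5000 IDs, 29 of 84 such pairs had r over 0.1 (median -0.04, range -0.83 to 0.82), and 7 of 24 libraries were closest to their own number. This check thus found no pairing by number. It cannot exclude a shared culture or day, since other variation among the libraries could hide it. A fit with the replicate number as a block changed no call of the 4 genes, with Myc at 0.19 for induction at 24 h (0.0243), and gave 44 IDs for induction at 4 h and 8522 at 24 h against 41 and 8503 without it. With few counts, Fos fell below the filter in 10 of 20 fits of the compared groups alone, so these gave no value.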
